A study of Rattus norvegicus with 20 samples.

Results

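The genes described here are 10 genes of white blood cells, most of them made by several leukocyte lineages and here called pan-leukocyte genes: Ptprc, Ikzf1, Sash3, Limd2, Laptm5, Coro1a, Cd53, Lcp1, Rac2 and Tyrobp. They were 10 of the 32495 named gene rows of a count table from rat gastrocnemius muscle, each matched by its symbol to a single row. The set was chosen by values from these same samples, because Ptprc, Ikzf1, Sash3 and Limd2 had moved one way after chemotherapy and the other way under the fish oil diet. Values of the 10 genes in those contrasts are therefore given as a description, without a test.

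Bulk RNA was sequenced from gastrocnemius of female Fischer 344 rats that all carried the Ward colorectal carcinoma, implanted 2 weeks before treatment began. TUMOUR STD rats (5 libraries) ate the standard diet and received no chemotherapy. CHEMO STD rats (7 libraries) ate the standard diet and received 2 cycles of CPT-11 (irinotecan, a topoisomerase inhibitor) and 5-FU (5-fluorouracil, an antimetabolite). CHEMO FO rats (8 libraries) received the same cycles and changed to a fish oil diet containing EPA and DHA when chemotherapy began, and muscle was collected 7 days after the second cycle. No group here was free of tumour, and none ate fish oil without chemotherapy. Libraries CHEMO STD 1 and 2 differed by more than counting noise but were far closer than any other pair of a group (chi-square per gene 2.23, against 13.7 to 255), and they were counted as 1 sample, which left 19 samples and a CHEMO STD group of 6. The labels do not say whether the other libraries of a group came from separate rats, so the spread between them may in part be technical.

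Leukocytes reach skeletal muscle in the blood and as resident macrophages, and after injury they enter it in larger numbers. Most leukocyte genes mark 1 lineage, whereas most of the genes considered here are shared by lymphoid and myeloid cells. They encode a receptor phosphatase and other membrane proteins (Ptprc, Cd53, Laptm5), adaptors and a transcription factor of immune signalling (Tyrobp, Sash3, Ikzf1), and proteins of the actin cytoskeleton and its control (Coro1a, Lcp1, Rac2). In whole muscle their level moves with how many leukocytes a piece of tissue holds and with how much of each transcript a cell makes, and from bulk libraries fewer cells and less RNA per cell cannot be told apart.

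The RefSeq promoter table (build GRCr8) held 6 of the 10 genes: Ptprc, Ikzf1, Limd2, Laptm5, Coro1a and Cd53. The 250 bases before the annotated start are shown for 4 genes that stood among the called ones in the comparisons below, a pair with and a pair without a PU box, the GAGGAA core that the myeloid and B cell factor PU.1 recognises. Capitals mark GAGGAA or its reverse complement TTCCTC, and each sequence reads 5′ to 3′ along the gene.
Ptprc: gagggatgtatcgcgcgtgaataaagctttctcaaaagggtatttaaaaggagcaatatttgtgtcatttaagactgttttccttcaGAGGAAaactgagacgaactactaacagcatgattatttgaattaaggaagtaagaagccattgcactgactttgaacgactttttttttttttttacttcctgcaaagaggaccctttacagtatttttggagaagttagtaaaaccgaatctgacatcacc
Ikzf1: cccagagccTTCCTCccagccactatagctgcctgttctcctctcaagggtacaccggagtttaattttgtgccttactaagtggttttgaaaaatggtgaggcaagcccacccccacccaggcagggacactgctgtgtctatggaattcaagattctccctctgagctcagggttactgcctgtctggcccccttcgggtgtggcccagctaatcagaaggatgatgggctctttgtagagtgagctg
Coro1a: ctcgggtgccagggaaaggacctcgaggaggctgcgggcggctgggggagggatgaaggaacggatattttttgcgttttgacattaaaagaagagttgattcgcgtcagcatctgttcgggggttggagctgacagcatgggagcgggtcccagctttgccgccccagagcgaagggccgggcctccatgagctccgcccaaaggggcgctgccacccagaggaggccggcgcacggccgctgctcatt
Limd2: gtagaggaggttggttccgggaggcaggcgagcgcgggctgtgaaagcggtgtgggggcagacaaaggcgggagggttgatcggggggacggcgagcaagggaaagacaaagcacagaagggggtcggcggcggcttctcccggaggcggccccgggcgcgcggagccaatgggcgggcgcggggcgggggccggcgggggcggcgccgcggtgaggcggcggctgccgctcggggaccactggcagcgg
The Ptprc stretch lies on the minus strand at chr13:52259747-52259996 and the Ikzf1 stretch on the plus strand at chr14:90468446-90468695. The Coro1a stretch lies on the minus strand at chr1:190731104-190731353 and the Limd2 stretch on the minus strand at chr10:91592160-91592409. Letters matching the PU box, on either strand, were present in 4 of the 6 promoters (Ptprc, Ikzf1, Laptm5 and Cd53) and in 23.3% of all 33469 promoters in the table. The RUNX core TGTGGT, searched on both strands, was in 0 of the 6 and in 14.5% of all promoters. The 6 stretches also differed in base composition, from a GC content of 36.0% before Ptprc to 76.0% before Limd2, with a median of 51.2% over all promoters. A match of letters is a description of the sequence and not evidence of binding.

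Named genes took 3020821 to 10857477 counts per library, and the 10 genes were scarce among them, with 1 to 650 counts per gene and sample. Levels are given as CPM, the count of a gene scaled to a common, TMM-adjusted library size. The tissue check was clear in every sample: 8 skeletal muscle genes, led by the fast myosin gene Myh4 and the actin gene Acta1, summed to between 124940 and 242020 CPM. The library CHEMO STD 7 stood apart before any comparison. Its T cell and B cell marker genes summed to 291 CPM, against 22.8 to 44.9 CPM in the other 18 samples, and results are therefore given with and without it.

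Ptprc encodes CD45, the receptor tyrosine phosphatase found on all nucleated blood cells, which sets the activity of Src family kinases. Its level in the 5 TUMOUR STD samples was 12.0, 9.43, 8.14, 9.69 and 8.50 CPM. In CHEMO STD the lowest, median and highest values were 10.1, 12.0 and 65.8 CPM, and in CHEMO FO they were 6.14, 9.89 and 12.5 CPM. The value of 65.8 CPM, from 335 counts, belonged to CHEMO STD 7, and the next highest of all samples was 17.3 CPM in CHEMO STD 6. The CHEMO STD mean was 21.3 ± 21.9 CPM (SD, n = 6) with that library and 12.4 ± 2.89 CPM (n = 5) without it, beside 9.54 ± 1.495 CPM (n = 5) in TUMOUR STD and 9.50 ± 2.18 CPM (n = 8) in CHEMO FO. All 3 groups overlapped.

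Laptm5, a lysosomal protein that limits antigen receptors at the cell surface, read 7.98, 8.24, 12.4, 6.94 and 9.03 CPM in TUMOUR STD. Its lowest, median and highest values were 6.66, 9.80 and 24.3 CPM in CHEMO STD and 4.003, 10.0 and 10.8 CPM in CHEMO FO. The median of Laptm5 was thus slightly higher under fish oil than on the standard diet, although the CHEMO STD mean (12.2 ± 6.53 CPM, SD, n = 6) was above that of CHEMO FO (8.54 ± 2.81 CPM, n = 8).

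Cd53, a tetraspanin of leukocyte membranes, was measured at 1.21, 1.89, 2.62, 2.26 and 3.54 CPM in TUMOUR STD. It spanned 1.24 to 7.07 CPM in CHEMO STD with a median of 2.12, and 0.252 to 3.21 CPM in CHEMO FO with a median of 2.48. Without CHEMO STD 7 the highest CHEMO STD value was 2.62 CPM, below the highest values of both other groups.

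Tyrobp (DAP12), the adaptor that couples activating receptors of myeloid and natural killer cells to the kinase Syk, read 3.81, 5.66, 4.27, 5.49 and 3.54 CPM in TUMOUR STD. It ranged from 4.12 to 9.23 CPM in CHEMO STD (median 5.64) and from 2.05 to 8.25 CPM in CHEMO FO (median 3.999). CHEMO STD 7 was again the highest sample, but by a narrow margin: CHEMO FO 18, at 8.25 CPM, came next.

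Ikzf1 (Ikaros), a zinc finger transcription factor of lymphoid development, was among the scarcest in counts, with 1 to 57 per sample. It read 0.173, 1.59, 2.23, 1.13 and 1.24 CPM in TUMOUR STD. In CHEMO STD it spanned 1.53 to 6.09 CPM with a median of 1.67, and in CHEMO FO 0.348 to 1.98 CPM with a median of 1.11. The lowest values, in TUMOUR STD 8 and CHEMO FO 16, rested on 1 count each, so differences among the low samples were not detectable at this depth.

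Sash3, an adaptor of lymphocyte signalling, read 0.867, 1.09, 2.33, 1.94 and 1.77 CPM in TUMOUR STD. Its range was 1.59 to 13.9 CPM in CHEMO STD (median 2.86) and 0.878 to 3.63 CPM in CHEMO FO (median 1.86). Among the CHEMO STD samples other than CHEMO STD 7 the highest was 3.97 CPM, close to the top of the CHEMO FO range.

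Coro1a, the leukocyte coronin that binds actin filaments, read 1.39, 3.37, 5.33, 3.39 and 9.92 CPM in TUMOUR STD. Its lowest, median and highest values were 2.54, 4.75 and 56.1 CPM in CHEMO STD and 2.63, 3.69 and 7.66 CPM in CHEMO FO. The CHEMO STD mean fell from 13.1 ± 21.2 CPM (SD, n = 6) to 4.48 ± 1.77 CPM (n = 5) without CHEMO STD 7, below the TUMOUR STD mean of 4.68 ± 3.24 CPM (n = 5).

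Lcp1 (L-plastin), which bundles actin filaments, read 24.6, 21.9, 40.4, 25.5 and 40.5 CPM in TUMOUR STD. It ranged from 23.6 to 78.5 CPM in CHEMO STD (median 30.1) and from 11.4 to 53.5 CPM in CHEMO FO (median 27.7). The second highest Lcp1 sample after CHEMO STD 7 was CHEMO FO 18.

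Rac2, the blood cell form of the Rac GTPases that drive migration and the oxidative burst, read 3.12, 1.49, 3.30, 1.45 and 4.96 CPM in TUMOUR STD. It spanned 2.68 to 22.4 CPM in CHEMO STD (median 3.27) and 1.60 to 3.93 CPM in CHEMO FO (median 2.71). The 5 CHEMO STD samples without CHEMO STD 7 lay between 2.68 and 3.73 CPM, wholly inside the TUMOUR STD range.

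Limd2, which encodes a small LIM domain protein, read 1.39, 1.39, 1.84, 1.13 and 1.59 CPM in TUMOUR STD. Its lowest, median and highest values were 0.317, 1.84 and 18.8 CPM in CHEMO STD and 1.05, 1.74 and 2.64 CPM in CHEMO FO. The group medians were thus alike, while the CHEMO STD mean was 4.53 ± 7.08 CPM (SD, n = 6) with CHEMO STD 7 and 1.67 ± 1.10 CPM (n = 5) without it.

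**Figure D1:**
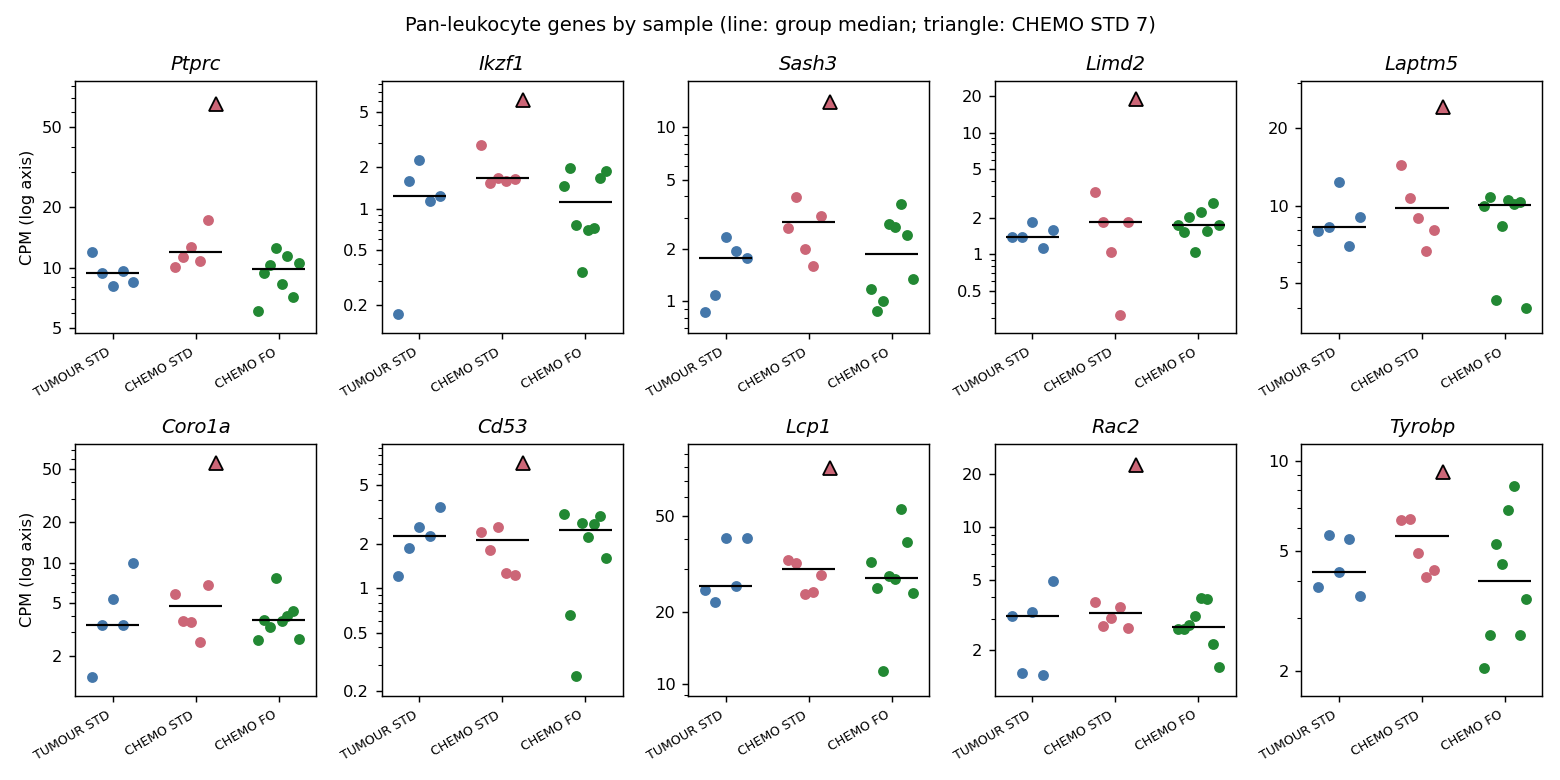
CPM of each pan-leukocyte gene (log axis, 1 panel per gene) in the 5 TUMOUR STD, 6 CHEMO STD and 8 CHEMO FO samples; each point is a sample, the line the group median and the triangle CHEMO STD 7. The triangle is the highest point in all 10 panels, and the other CHEMO STD points overlap with both other groups.

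None of the 10 genes had every CHEMO STD sample above every TUMOUR STD sample (0 of 10, against 0.179% of all tested genes), nor above every CHEMO FO sample (0 of 10, against 0.0256%).

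CHEMO STD versus TUMOUR STD addresses what 2 cycles of chemotherapy did in tumour-bearing rats. All 10 genes passed the filter on low counts and had a higher fitted mean in CHEMO STD, and 6 met the thresholds of an unadjusted p value below 0.05 and a fold change of at least 1.5: Limd2, Coro1a, Sash3, Ptprc, Rac2 and Ikzf1. Of all 11716 genes tested, 0.93% were called higher, but this contrast chose the genes and nothing is read from the count. By edgeR, 0 of the 11716 genes had an adjusted p value below 0.05, and that of each of the 6 was 0.719. Their log2 fold changes were 1.61 (SE 0.62) for Limd2, 1.49 (SE 0.64) for Coro1a, 1.47 (SE 0.51) for Sash3, 1.16 (SE 0.39) for Ptprc, 1.16 (SE 0.50) for Rac2 and 0.96 (SE 0.47) for Ikzf1. The 4 others had log2 fold changes of 0.46 (SE 0.30) for Laptm5, 0.37 (SE 0.31) for Tyrobp, 0.28 (SE 0.46) for Cd53 and 0.26 (SE 0.32) for Lcp1. The median log2 fold change was 1.06 over the 10 genes and -0.0016 over all genes tested.

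Without CHEMO STD 7, 0 of the 9 genes still tested were called higher, against 0.878% of the 11730 genes tested in that fit. Ikzf1 no longer passed the filter on low counts, and its log2 fold change was 0.55 (SE 0.48) when no filter was applied. The log2 fold change became 0.70 (SE 0.40) for Sash3, 0.39 (SE 0.20) for Ptprc, 0.30 (SE 0.38) for Limd2, 0.17 (SE 0.33) for Rac2 and -0.01 (SE 0.38) for Coro1a. For Cd53 and Lcp1 it turned negative, to -0.21 (SE 0.43) and -0.11 (SE 0.27), and the median over the 9 genes was 0.17.

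CHEMO FO versus CHEMO STD addresses the diet during chemotherapy. All 10 fitted means were lower in CHEMO FO, and the same 6 genes were called. The background was 1.05% of tested genes called lower, and this contrast too had chosen the genes. Here 0 of the 11716 genes had an adjusted p value below 0.05 by edgeR, and that of each of the 6 was 0.974. The log2 fold changes of the 6 were -1.75 (SE 0.57) for Coro1a, -1.31 (SE 0.54) for Limd2, -1.16 (SE 0.34) for Ptprc, -1.13 (SE 0.45) for Rac2, -1.12 (SE 0.44) for Sash3 and -1.12 (SE 0.44) for Ikzf1. Those of Laptm5, Cd53, Tyrobp and Lcp1 were -0.53, -0.43, -0.35 and -0.27, with SEs from 0.27 to 0.43. This comparison and the previous one share all CHEMO STD samples, CHEMO STD 7 included, so a high CHEMO STD mean enters each with the opposite sign.

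Without CHEMO STD 7, 0 of 9 genes were called lower in CHEMO FO, against 0.716% of the genes tested. The log2 fold change was then -0.38 (SE 0.18) for Ptprc, -0.35 (SE 0.36) for Sash3, -0.24 (SE 0.36) for Coro1a and -0.14 (SE 0.30) for Rac2. That of Limd2 was within 0.01 of 0 (SE 0.35), and those of Lcp1 and Cd53 were positive, at 0.10 (SE 0.25) and 0.06 (SE 0.40). Ikzf1, fitted without the filter, stood at -0.69 (SE 0.45).

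**Figure D2:**
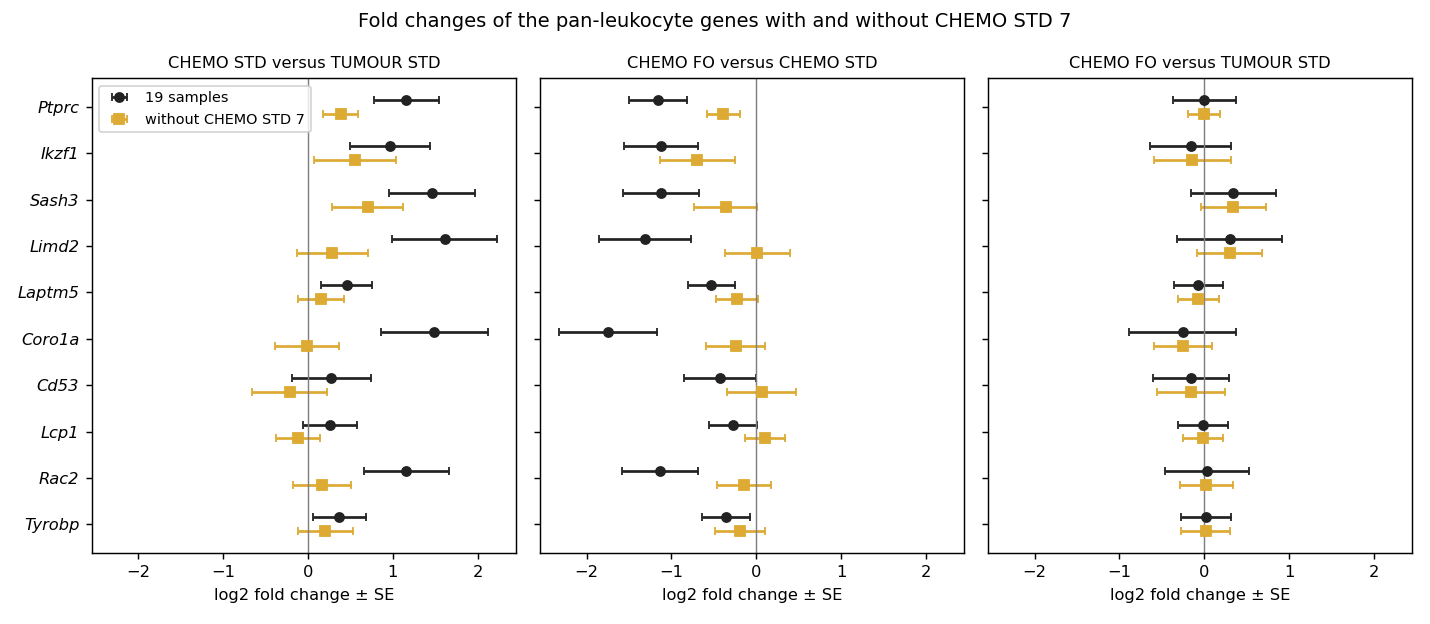
Log2 fold change with its SE (horizontal axis) of each pan-leukocyte gene in the 3 comparisons, from the fit of 19 samples (circles) and, with no filter on low counts, from 18 samples without CHEMO STD 7 (squares). The circles lie to the right of 0 in the first panel and to the left in the second, the squares lie nearer to 0 in both panels, and the third panel is centred on 0 with or without that library.

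The log2 fold change in CHEMO FO versus TUMOUR STD is the sum of those in the other comparisons, so choosing genes that moved in opposite directions there favours values near 0 here. The values of the 10 genes are therefore a description, and nothing is read from their count. None of the 10 genes passed the thresholds (0 of 10, against 3.6% of tested genes in either direction; at an unadjusted p value below 0.05 also 0 by edgeR, and 0 by DESeq2, which gave no p value for Coro1a). Log2 fold changes ran from -0.26 for Coro1a to 0.34 for Sash3. Ptprc stood at 0.00 (95% interval -0.76 to 0.77), Lcp1 at -0.02 (-0.64 to 0.60), Tyrobp at 0.02 (-0.59 to 0.63) and Laptm5 at -0.07 (-0.67 to 0.53). On the linear scale these intervals run from 0.590-fold to 1.70-fold for Ptprc and from 0.630-fold to 1.44-fold for Laptm5. Intervals were wider for Limd2, from -0.98 to 1.58, and for Coro1a, from -1.56 to 1.05, and the last includes changes of 2-fold in both directions. Neither group holds CHEMO STD 7, but the fit shares 1 estimate of spread across groups, and without that library the SE of Ptprc went from 0.37 to 0.18 and that of Coro1a from 0.63 to 0.35, with 0 of 9 genes called.

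CHEMO STD 7 was the highest of the 19 samples for 10 of 10 genes, against 5.06% of all tested genes. It was at least 2-fold above the median of the other 5 CHEMO STD samples for 9 of the 10, against 3.47% of tested genes. The contrasts that chose the genes hold this library, so both counts are a description and nothing is read from them. The ratio was 15.3 for Coro1a, 10.3 for Limd2, 7.36 for Rac2, 5.82 for Ptprc and 5.32 for Sash3. It was 3.86 for Cd53, 3.69 for Ikzf1, 2.76 for Lcp1, 2.73 for Laptm5 and 1.87 for Tyrobp. The smallest ratio was that of Tyrobp, and a link between the ratio and the lineage of a gene was not tested. The median over all 10 genes was 4.59, beside 0.995 over all tested genes.

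The same library was compared with the others over marker genes of single lineages. B cell genes stood furthest apart: the 14 genes of that list summed to 190 CPM, against 1.18 to 7.56 CPM in the other samples. The complement receptor gene Cr2 had 216 counts (42.4 CPM) there and at most 0.292 CPM elsewhere, the antigen receptor gene Cd79b 21.4 CPM against at most 0.347, and Ighm, the heavy chain of IgM, 60.7 CPM against at most 2.40. T cell genes summed to 101 CPM against 19.9 to 37.3 CPM. Cd8a read 5.69 CPM and Lck 7.26 CPM in CHEMO STD 7, against at most 0.878 and 1.95 CPM elsewhere, while Cd4, which rat macrophages also make, was less apart (29.1 CPM against 13.6 to 27.1).

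Genes of lymph node stroma and its vessels moved with them. Their sum was 102 CPM, against 4.04 to 30.4 CPM in the other samples. Glycam1, a mucin of the high endothelial venules through which lymphocytes enter lymph nodes, had 157 counts (30.8 CPM) in CHEMO STD 7 and 0 counts in the other 18 samples together. The chemokine genes Ccl21 and Ccl19 read 62.4 and 4.71 CPM, against at most 29.7 and 0.317 CPM. Of the 9 genes on this list, 5 had no count in CHEMO STD 7, Madcam1 and Fdcsp among them.

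Other lineages were mixed in CHEMO STD 7. Against the median of the other 5 CHEMO STD samples, natural killer cell genes summed to 3.31 times and neutrophil genes to 6.08 times. The ratio of the sums was 3.69 for T cell genes and 42.9 for B cell genes. Macrophage genes summed to 551 CPM, inside the range of 253 to 864 CPM of the other samples, whose highest was CHEMO FO 18. Natural killer cell genes summed to 13.2 CPM (1.05 to 5.37 elsewhere), neutrophil genes to 7.66 (0 to 6.81), mast cell genes to 50.65 (15.5 to 41.4) and dendritic cell genes to 47.7 (15.7 to 67.6). Of the 10 dendritic cell genes, 2 were highest in CHEMO STD 7. They were Ccr7 (8.83 CPM, at most 0.646 elsewhere) and Irf8 (16.1 CPM, at most 5.49 elsewhere). Plasma cell, platelet, erythrocyte and endothelial genes, at 11.2, 5.50, 512 and 217 CPM, were inside the ranges of the other samples. Skin genes summed to 7.26 CPM there, while TUMOUR STD 10 held 549 CPM of them and CHEMO FO 16 held 115. TUMOUR STD 10 had the highest Laptm5, Sash3, Ikzf1 and Limd2 of its group but the lowest Ptprc (8.14 CPM). CHEMO FO 16 had the highest Ptprc and Coro1a of its group but the lowest Ikzf1 (0.348 CPM) and Limd2 (1.05 CPM). The part of any of these lineages in the levels of the 10 genes was not tested.

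**Figure D3:**
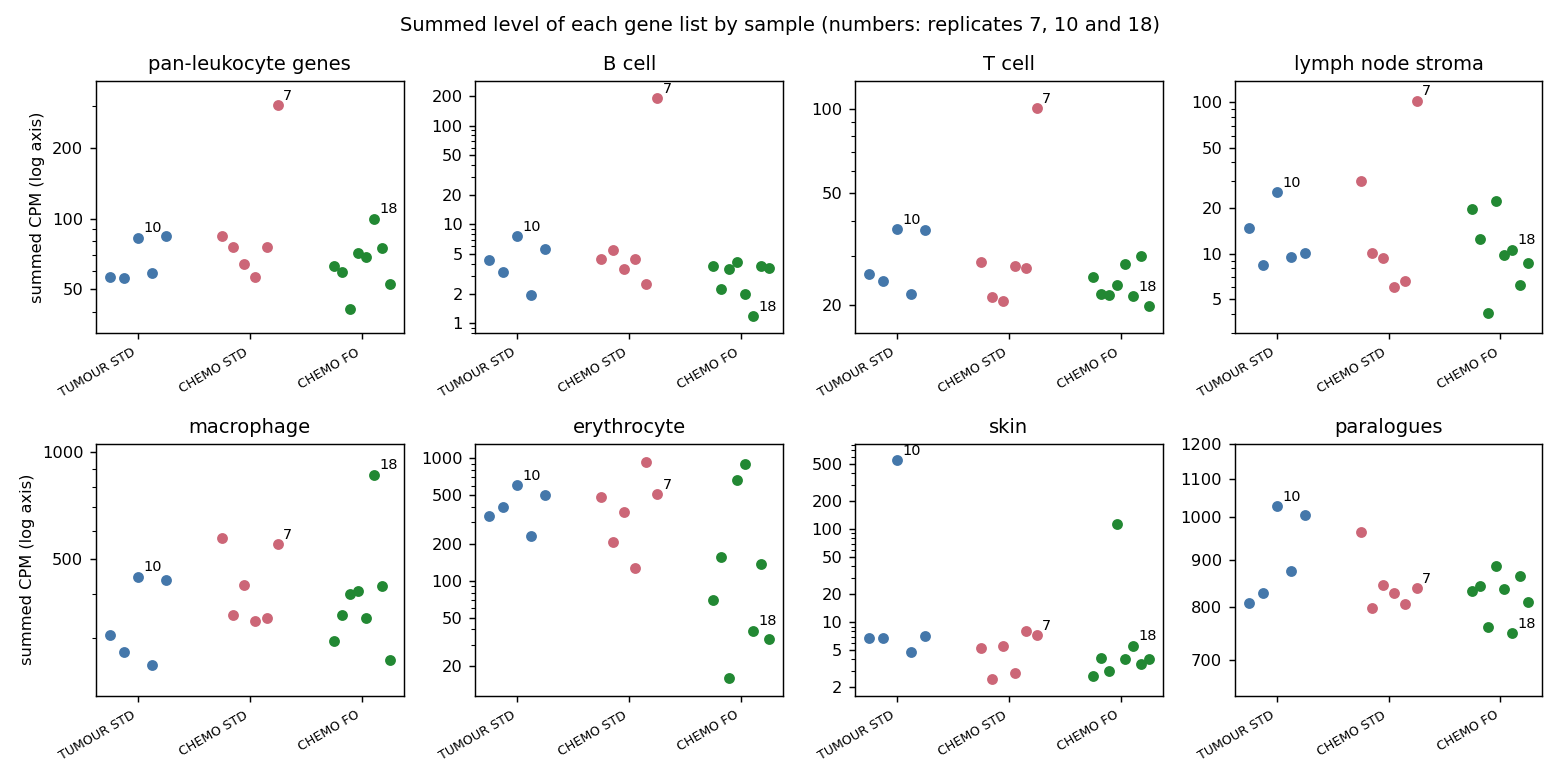
Summed CPM (log axis) of the pan-leukocyte genes and of 7 other gene lists in each of the 19 samples, with replicates 7 (CHEMO STD), 10 (TUMOUR STD) and 18 (CHEMO FO) numbered. CHEMO STD 7 is the highest point for the pan-leukocyte, B cell, T cell and lymph node stroma lists and lies among the others for macrophage, erythrocyte, skin and paralogue genes.

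A further list of 40 leukocyte-wide genes, 39 of them found and 30 tested, was read beside the 10. The list was chosen with earlier results of these data known. CHEMO STD 7 was the highest of the 19 samples for 30 of the 38 listed genes that had a ratio. The counts of this list are therefore a description, and nothing is read from them. In CHEMO STD versus TUMOUR STD, 30 of 30 had a higher fitted mean (median 0.29 on the log2 scale), against 5828 of all 11716 tested genes. Of the 30, 4 were called higher, against 0.93% of tested genes (Fyb1, Arhgap25, Arhgap30 and Fermt3, all proteins of signalling or adhesion in blood cells). In CHEMO FO versus CHEMO STD, 29 of 30 were lower, with a median of -0.38, against 6015 of all 11716 tested genes. Of the 30, 8 were called lower, against 1.05% of tested genes. Without CHEMO STD 7 the medians were -0.05 and -0.11 over the 29 genes tested. In that fit 1 gene was called higher in the first comparison (0.878% of tested genes) and 0 lower in the second (0.716%). For the macrophage list the median over 16 tested genes was 0.48 in CHEMO STD versus TUMOUR STD and 0.35 without CHEMO STD 7. The difference between the lists was not tested.

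In CHEMO FO versus TUMOUR STD, 1 of the 30 leukocyte-wide genes was called, against 3.6% of all tested genes in either direction. It was the myosin gene Myo1f, with a log2 fold change of -0.65 (SE 0.26, adjusted p = 0.515 by edgeR). Among 16 macrophage genes 12 had a higher fitted mean, against 5908 of all 11716 tested genes. The 1 called among them was the haemoglobin scavenger receptor gene Cd163, at 1.22 (SE 0.49, adjusted p = 0.515 by edgeR). Neither Myo1f nor Cd163 had an adjusted p value below 0.05. In this comparison 0 of the 11716 tested genes did by edgeR, and 11 did by DESeq2. The highest Cd163 value outside CHEMO STD 7 was 272 CPM, against a median of 33.1 CPM in those 18 samples. Macrophage genes summed highest in CHEMO FO 18, at 864 CPM, and the part of that library in the call was not tested.

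The library ratio also differed among partners of the 10 genes. The leukocyte-wide genes most raised in CHEMO STD 7 were Cd37, a tetraspanin of B cells, at 22.9 times the median of the other CHEMO STD samples, Ptprcap, which binds CD45, at 20.7 times, and Rhoh, a GTPase of lymphocytes, at 17.01 times. Among Src family kinases, the lymphocyte kinases Blk and Lck were 31.8 and 17.3 times the median, while Fyn and Lyn, at higher levels, were 1.21 and 1.44 times. The denominators of Cd37, Ptprcap, Rhoh, Blk and Lck were 0.105 to 0.635 CPM, so their ratios are coarse. Of the Tyrobp partners, Siglec1 and the kinase Syk were 3.30 and 3.22 times the median and Trem2, a microglia and macrophage receptor, was at 1 count. For Rac2, the inhibitor Arhgdib was at 3.04 times the median, whereas the oxidase subunits Cybb, Ncf1 and Ncf4 were at 1.46, 1.38 and 1.38 times. In CHEMO STD versus TUMOUR STD, 0 of 5 tested Tyrobp partners were called, and 0 of 9 Rac2 activators and oxidase genes, against 279 of all 11716 tested genes.

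**Figure D4:**
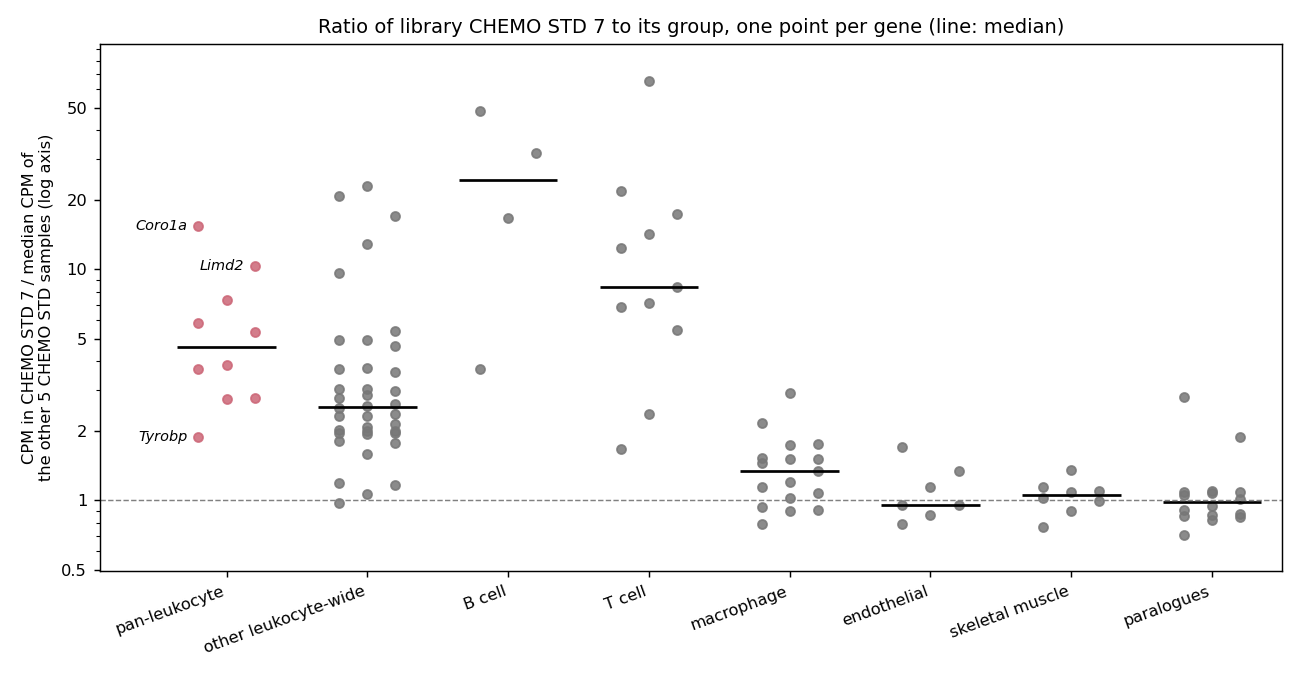
Ratio of CPM in CHEMO STD 7 to the median CPM of the other 5 CHEMO STD samples (log axis), 1 point per gene with a ratio above 0, grouped by gene list with the median as a line and equality dashed. The pan-leukocyte genes spread from 1.87 (Tyrobp) to 15.3 (Coro1a). Their median, 4.59, lay below those of the B cell genes (24.3, 4 genes with a ratio) and T cell genes (8.35, 11 genes). It lay above those of the macrophage, endothelial, muscle and paralogue genes, which were near 1. Single genes of the lists overlapped, such as Lyz2 (macrophage, 2.92) and Cd4 (T cell, 1.67).

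Paralogues that other cells make gave a comparison within gene families, although how reads shared by similar genes were counted is not given in the sources used here. The 18 paralogues summed to 838 CPM in CHEMO STD 7, inside the range of 748 to 1028 CPM of the other samples. Rac1, the ubiquitous relative of Rac2, read 110 CPM there against 104.4 to 152 CPM, Pls3, the plastin of solid tissues, 29.8 against 20.2 to 63.4 CPM, and Ikzf5 26.9 against 16.4 to 38.4 CPM. Laptm4a read 195 CPM against 144 to 257 CPM. Limd1, whose kinship to Limd2 was not examined, read 64.2 against 54.2 to 77.5 CPM. The exception was Coro1b, a coronin made in many tissues, which was highest of all samples in CHEMO STD 7, at 51.4 CPM against 21.7 to 40.4 CPM. Of the 15 paralogues tested, 0 were called in any of the 3 comparisons. Of all 11716 tested genes, 279 were called in CHEMO STD versus TUMOUR STD, 195 in CHEMO FO versus CHEMO STD and 422 in CHEMO FO versus TUMOUR STD.

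Deviations of log2 CPM from the group mean were correlated between the 10 genes over the 19 samples, as a description. The median Pearson r of the 45 pairs was 0.59 (median Spearman rho 0.38), and 44 of 45 were above 0. Cd53 and Lcp1 were the most alike (r = 0.83, rho = 0.81), followed by Sash3 and Lcp1 (r = 0.80, rho = 0.76). The only pair below 0 was Ikzf1 and Tyrobp (r = -0.09, rho = -0.19).

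Without CHEMO STD 7 the median r fell to 0.19 (rho 0.22) over 18 samples, with 34 of 45 pairs above 0. The highest values were then 0.77 for Cd53 and Lcp1, 0.69 for Laptm5 and Lcp1 and 0.68 for Sash3 and Lcp1. Ptprc had the lowest ones, with r = -0.56 to Ikzf1, -0.42 to Laptm5 and -0.38 to Cd53. Leaving out the pair of samples farthest from the median level of the 10 genes, CHEMO STD 7 and CHEMO FO 15, gave a median r of 0.25 over 17 samples.

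**Figure D5:**
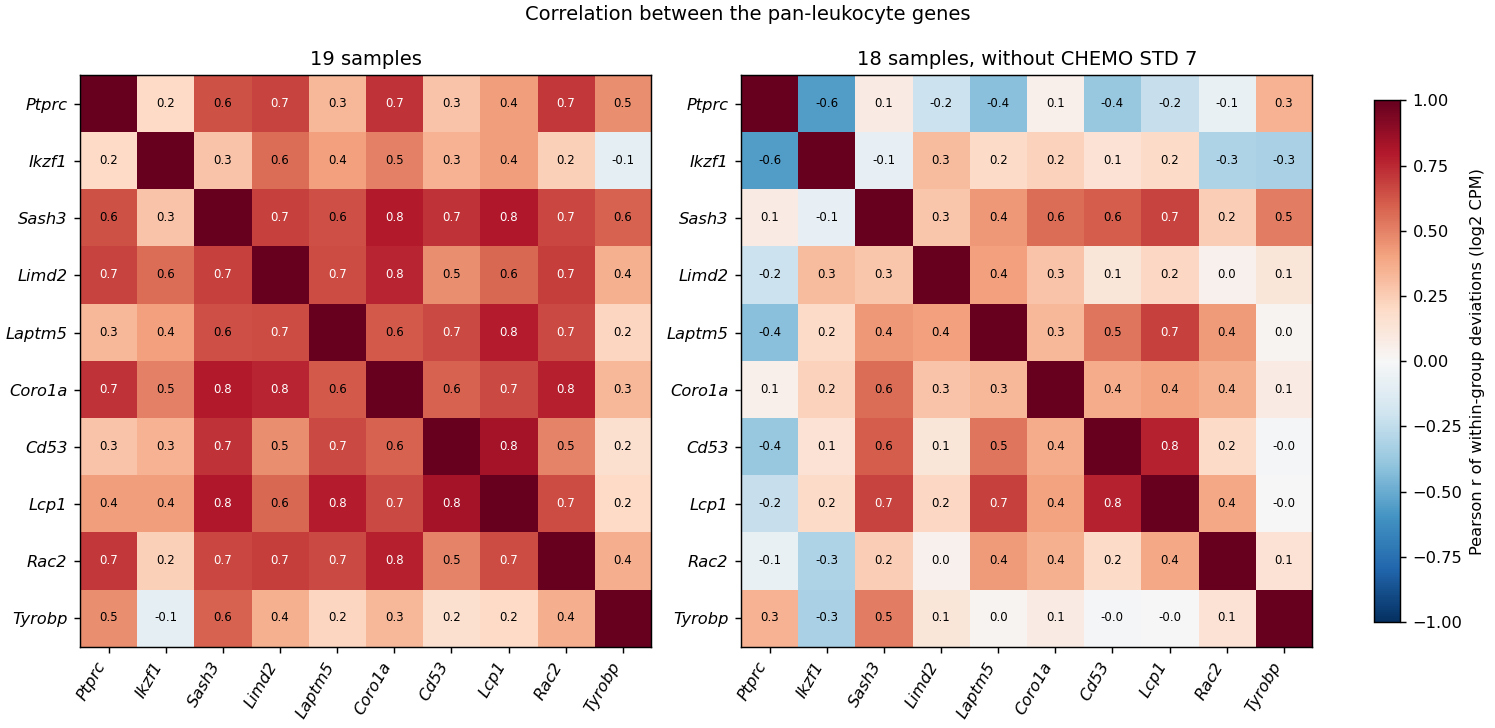
Pearson r between the within-group deviations of log2 CPM for each pair of pan-leukocyte genes, over 19 samples (left) and over 18 without CHEMO STD 7 (right); red is positive and blue negative. The left panel is red but for Ikzf1 with Tyrobp, and in the right panel Cd53 with Lcp1 has the highest value (0.77) and the row of Ptprc is mostly blue.

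Against the mean deviation of the 16 tested macrophage genes, r was highest for Rac2 (0.57, rho 0.70), Sash3 (0.55, rho 0.51) and Lcp1 (0.54, rho 0.56) and lowest for Ikzf1 (-0.01, rho -0.01). Without CHEMO STD 7 the values were 0.70 for Rac2, 0.57 for Sash3, 0.52 for Lcp1 and 0.53 for Coro1a, with 0.09 for Ptprc and -0.13 for Ikzf1. With CHEMO STD 7 kept, the samples farthest from the median of the macrophage genes were CHEMO FO 18 and CHEMO FO 20. Leaving those out gave the highest values for Coro1a (0.59), Rac2 (0.57), Sash3 (0.48) and Limd2 (0.45). Without CHEMO STD 7, the farthest were CHEMO FO 18 and CHEMO STD 1+2. With these also left out the values were 0.64 for Coro1a, 0.71 for Rac2, 0.46 for Sash3 and 0.17 for Limd2. Other lists gave values of similar size for some genes. Without CHEMO STD 7, erythrocyte genes (5) gave 0.49 for Coro1a, 0.50 for Laptm5, 0.38 for Sash3, 0.28 for Rac2 and 0.23 for Lcp1. Endothelial genes (7) gave 0.08, 0.49, -0.06, -0.0027 and 0.23 in the same order. Laptm5 stood at 0.47 with the macrophage genes. The difference between these lists was not tested. Only 2 T cell genes (Cd4 and Cd6) and 0 B cell genes were tested, so no such value is given for B cells. Against the mean of Cd4 and Cd6, Rac2 again had the highest r (0.68, rho 0.55). It was 0.36 without CHEMO STD 7 and 0.40 without the 2 farthest samples, CHEMO STD 7 and CHEMO FO 14. Leaving out CHEMO STD 7 took Ptprc from 0.38 to -0.49 and Limd2 from 0.48 to -0.09. Sash3 went from 0.48 to 0.07, Coro1a from 0.51 to 0.01 and Ikzf1 from 0.36 to 0.09. Cd53 and Lcp1 went from 0.55 each to 0.36 and 0.30. Outside CHEMO STD 7 the median of Cd4, which rat macrophages also make, was 17.1 CPM and that of Cd3e was 0. The Cd4 and Cd6 pair is therefore not a measure of T cells alone.

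Among genes outside the set, those whose deviations were most like the mean of the 10 over the 19 samples were RT1-Da (r = 0.90), Arhgdib (0.87), Cd74 (0.87), Wdfy4 (0.87), Fxyd5 (0.86), Lyz2 (0.86), AABR07029272.1 (0.85), Coro1b (0.85), Ago4 (0.84) and RT1-Ba (0.84). RT1-Da and RT1-Ba encode chains of rat MHC class II, and Cd74 encodes the invariant chain that assembles with them. Cd74 read 335 CPM in CHEMO STD 7 against a median of 98.8 CPM in the other CHEMO STD samples. Over the 18 samples without it the 10 most alike genes were Yipf5, Xab2, Rnf41, Glmp, Tbc1d20, Ap1b1, Serpinh1, Rnh1, Ddost and Trim28 (r from 0.86 to 0.93). Of these, Yipf5, Ap1b1, Serpinh1 and Ddost encode proteins of the secretory pathway, which most cells use, and 0 genes were in both lists.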

How the data were processed

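The authors trimmed the read pairs with Trim Galore 0.4.1, checked them with FastQC 0.11.4, aligned them to the rat genome (Rnor 6) with TopHat2 2.0.10 and Bowtie2, and deposited unnormalised whole-number counts per gene for 20 libraries of stranded, rRNA-depleted total RNA. How reads were assigned to genes, by strand or when shared between genes, is not given in the sources used here. Rows without a gene name (388, holding 0.102% to 0.272% of a library) were left out.

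Counts of CHEMO STD 1 and 2 were summed: their chi-square per gene was 2.23, against 13.7 to 255 in the other 58 pairs within groups. The 3 groups were fitted together in R 4.3.3 with edgeR 4.0.16 (default filter, minimum count 10 and minimum total 15, TMM scaling, quasi-likelihood test). Calls needed an unadjusted p value below 0.05 with a change of 1.5-fold or more, following the methods of the study, and adjusted p values are Benjamini-Hochberg over all tested genes. Because the labels do not name separate animals, p values measure the spread between these samples. SEs are of the log2 fold change without shrinkage. Correlations used log2 CPM with a prior count of 2. The fit was tested on simulated data. Alternatives were DESeq2 1.42.0, limma 3.58.1 (voom with sample weights), other scalings and filters, and samples left out.

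The genes, marker lists and tests were chosen with earlier results of these data known. Named genes were the 10 genes, paralogues, abundant or called genes of the lists, and the 10 most alike genes by Pearson r; partners and marker genes given by ratio or level in 1 library were chosen after their values were seen. Promoter sequences are from RefSeq (GRCr8). Figures were drawn with matplotlib 3.10.9.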

Additional observations from a re-analysis of the deposited data

Results flagged for a closer look

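In 30 tests of a gene within a group (10 genes in 3 groups), 9 had an extreme sample whose gap to the next one took up more of the group's range than Dixon's 95% critical value allows. Chance gives about 1 in 20, but these are values that chose the genes, and the genes share libraries, so that rate is no yardstick here. In 8 of the 9 the sample was CHEMO STD 7, as the highest of its group: Ptprc at 65.8 CPM, Ikzf1 at 6.09, Sash3 at 13.9, Limd2 at 18.8, Coro1a at 56.1, Cd53 at 7.07, Lcp1 at 78.5 and Rac2 at 22.4 CPM. Laptm5 and Tyrobp were the genes for which CHEMO STD 7 was highest without passing. The ninth was Coro1a in CHEMO FO 16, the highest of its group at 7.66 CPM, from 22 counts. That library also held 115 CPM of skin genes, and the part of either in the value was not tested.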

How the results depend on the processing

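Of the 10 genes, 6 were called in CHEMO STD versus TUMOUR STD (higher) and 6 in CHEMO FO versus CHEMO STD (lower), and 0 in CHEMO FO versus TUMOUR STD, where every alternative also gave 0. The first count was 3 with only the 2 groups compared in the fit and 3 with limma voom, and the second was 2 with limma voom; the cause was not tested. Leaving out 1 sample gave 0 to 6 and 0 to 7; the lowest values of both came without CHEMO STD 7, and the first was 3 without TUMOUR STD 9 or TUMOUR STD 11. In alternatives chosen after seeing the data, both counts were 0 without CHEMO STD 7 in DESeq2, in edgeR with no filter, and with CHEMO FO 18 also left out; with TUMOUR STD 10 also left out they were 1 and 0. The log2 fold change of Coro1a in CHEMO STD versus TUMOUR STD changed sign without CHEMO STD 7, to -0.0087 with the filter (its highest value, 1.93, came without TUMOUR STD 12), -0.011 with no filter, -0.019 in DESeq2 and -0.0039 with CHEMO FO 18 also left out. That of Limd2 in CHEMO FO versus CHEMO STD became 0.015 with no filter, 0.0043 with TUMOUR STD 10 and 0.023 with CHEMO FO 18 also left out. Other scalings, filters and the treatment of CHEMO STD 1 and 2 gave 4 to 6 calls in both comparisons. DESeq2 called 5 in each, since it gave Coro1a no p value. Among the recomputed fold changes of single genes, 7 of genes that had been called changed sign, as given above; sign changes of genes that had not been called, such as those of Cd53 and Lcp1 without CHEMO STD 7, are not counted in the 7. The median r between the genes, 0.59, was 0.38 with Spearman's rho, 0.19 without CHEMO STD 7 and 0.25 without the 2 farthest samples. No paired analysis was possible because the groups share no replicate numbers. Ikzf1 passed the filter on low counts in only 8 of the 18 fits with 1 sample left out. With 1 to 57 counts per sample for Ikzf1, 1 to 48 for Cd53 and 1 to 96 for Limd2, depth limits these genes most.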
